A study of Homo sapiens with 9 samples.

Results

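The genes described here are the zinc finger genes of human chromosome 19 whose symbol is ZNF followed by a number. They were taken from the protein-coding genes of the GENCODE annotation on GRCh37, and 240 of the 19820 protein-coding genes met this rule. The other 1188 protein-coding genes of chromosome 19 and the 236 numbered ZNF genes of other chromosomes serve as comparison, and 8 chromosome 19 symbols that carry a letter or name a second gene were put in no group. RNA polymerase II (RNAPII) was immunoprecipitated with its crosslinked DNA and sequenced (ChIP-seq) in HEK293 cells, which derive from human embryonic kidney, to ask how its distribution depends on RECQL5, a DNA helicase that binds RNAPII. The hairpin arm held HEK293 cells infected with lentivirus carrying a control short hairpin RNA (control shRNA), RECQL5 shRNA5 or RECQL5 shRNA7. The doxycycline arm held HEK293T-rex cells with a plasmid that encodes full-length RECQL5 behind a doxycycline-responsive promoter, grown at 0 or 1 ng/ml of the drug, so that both of its lists come from cells that carry the plasmid as well as the native gene. Each of the 5 RNAPII lists stands for 1 library called against non-specific IgG, so every difference below is between single libraries and has no replicate check.

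Chromosome 19 carries the largest collection of C2H2 zinc finger genes in the human genome, arranged in tandem clusters that grew by gene duplication. In the typical gene the short first exons encode a KRAB domain, and 1 long last exon encodes the whole array of fingers, each of which grips a zinc ion with a pair of cysteines and a pair of histidines and reads a few bases of DNA. KRAB zinc finger proteins recruit TRIM28 and, through it, the histone H3K9 methyltransferase SETDB1, and many of them silence transposable elements. The 3′ ends of these genes are themselves known to carry H3K9 methylation.

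The 240 genes fell into 20 position groups when neighbors up to 500 kb apart were joined. Of these, 8 groups held at least 10 genes each and 218 genes together, while 8 genes stood alone. Gene length had a median of 25452 bp, from 3117 to 488696 bp, close to the 27001 bp of all protein-coding genes, and 131 of the genes lay on the plus strand. Their layout was less ordinary. The last coding exon held a median of 87.2% of the coding sequence, against 14.7% over all protein-coding genes, and measured 1522 bp of coding sequence at the median, against 170 bp. In 233 genes it held more than 50% of the coding sequence. The translated coding sequences of 239 genes held 2999 C2H2 fingers, with a median of 12 per gene and a range of 1 to 36, and 2963 of these fingers (98.8%) were encoded by the last coding exon. The coding sequence of ZNF274 does not stay in frame on GRCh37, and its fingers were not counted.

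Because that exon returns below as a place where RNAPII peaks were found, 3 stretches of it are shown, each of them under an shRNA7 peak. They are 246 bases of the GRCh37 reference, printed 5′ to 3′ on the coding strand, and the capitals mark the codons of the linker that joins one finger to the next.
ZNF431, chr19:21365806-21366051, plus strand: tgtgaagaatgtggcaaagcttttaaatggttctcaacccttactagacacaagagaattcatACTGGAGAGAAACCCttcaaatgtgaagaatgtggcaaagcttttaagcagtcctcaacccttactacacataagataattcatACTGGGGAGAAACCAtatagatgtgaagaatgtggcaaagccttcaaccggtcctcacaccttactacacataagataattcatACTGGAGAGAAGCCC
ZNF345, chr19:37368594-37368839, plus strand: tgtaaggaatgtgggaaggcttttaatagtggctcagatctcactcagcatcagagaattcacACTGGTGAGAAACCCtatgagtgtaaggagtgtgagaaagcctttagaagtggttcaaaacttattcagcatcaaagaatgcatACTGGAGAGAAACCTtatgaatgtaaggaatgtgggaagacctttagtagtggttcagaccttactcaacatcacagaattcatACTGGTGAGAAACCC
ZNF461, chr19:37130179-37130424, minus strand: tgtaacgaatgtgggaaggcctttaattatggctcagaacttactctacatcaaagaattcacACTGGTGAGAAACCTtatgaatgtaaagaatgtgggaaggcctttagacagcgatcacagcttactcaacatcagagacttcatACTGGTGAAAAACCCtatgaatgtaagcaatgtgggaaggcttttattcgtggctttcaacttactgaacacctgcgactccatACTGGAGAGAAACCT
The stretches were picked as runs of 3 fingers, each followed by the linker, so its recurrence and spacing come from that choice. ZNF345 and ZNF461 come from 1 position group and ZNF431 from another. Stretches of this kind are alike between neighboring genes, and reads were aligned with Bowtie's best option, with no limit on the number of matching places given in the sources used here, so peaks over them are uncertain as to the copy.

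A peak was assigned to a gene when it touched the gene's span widened by 500 bp. It was called a TSS peak when it touched the 500 bp on either side of the transcription start site (TSS) of any protein-coding transcript of the gene. Otherwise it was a 3′ end peak when it touched the 500 bp on either side of the gene end, and a body peak elsewhere. The whole lists held 5287 (control shRNA), 23698 (shRNA5), 32124 (shRNA7), 47060 (no doxycycline) and 33900 peaks (doxycycline), with 842310 to 6698771 tags in peaks. The hairpin lists used here are shorter than the numbers of peaks given in the study's methods, by the widest factor for the control, and every fold against the control rests on the list as used here. The smallest peaks of the hairpin lists rested on 26 to 35 tags and those of the doxycycline arm on 9 and 11 tags, so levels and lengths were compared only within an arm. The shRNA7 list also held peaks with an estimated false discovery rate of up to 19.6%, against 1.09 to 6.25% in the others. On chromosome 19 it was thinner than its total would give, with 1459 peaks against 1500 for shRNA5. It touched 88.4% of the control peaks genome-wide, 72.0% on chromosome 19 (95% Wilson interval 68.0 to 75.8%) and 46.9% of the 32 control peaks between ZNF565 and ZNF573 (chr19:36673178-38307940), whereas the shRNA5 list touched 97.4%, 93.9% and 90.6% of them. Counts that rest on this stretch are therefore also given without its 24 zinc finger genes. RECQL5 itself had no peak in the control and shRNA5 lists, a TSS peak of 280 tags upon shRNA7, and TSS peaks of 679 and 816 tags without and with doxycycline. Peaks do not measure RECQL5 transcript or protein, and those of the doxycycline arm include sequence shared with the plasmid. Of 5 genes known from HEK293 cells, 2 to 4 had a TSS peak in a list, with VIM and LIN28B in all 5 lists and NEFM in none. The hepatocyte gene ALB, the leukocyte gene PTPRC and the erythroid gene HBB had a peak in no list, while the muscle gene ACTA1 had a TSS peak in 3 lists and the fibroblast gene COL1A1 in 3.

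TSS peaks were found on 71 of the 240 zinc finger genes in the control shRNA list, which is 29.6% (interval 24.2 to 35.6%, counting error only, as for all intervals here), against 17.3% of all protein-coding genes. Upon shRNA5 there were 146 such genes (60.8%, interval 54.5 to 66.8%), against 44.5% of all genes. Upon shRNA7 there were 161 (67.1%, interval 60.9 to 72.7%), against 52.8%. In the doxycycline arm 192 genes had a TSS peak without the drug (80.0%, interval 74.5 to 84.6%), against 57.0% of all genes, and 176 with it (73.3%, interval 67.4 to 78.5%), against 48.2%. In each of the 5 lists the zinc finger genes of chromosome 19 thus carried a TSS peak more often than protein-coding genes at large. The other genes of chromosome 19 stood lower, at 19.5%, 43.8%, 42.9%, 54.5% and 46.7% in the control, shRNA5, shRNA7, no doxycycline and doxycycline lists. ZNF genes of other chromosomes stood at 22.9%, 65.7%, 77.1%, 82.6% and 74.2%, with intervals that overlapped those of the chromosome 19 genes in all 5 lists.

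**Figure D1:**
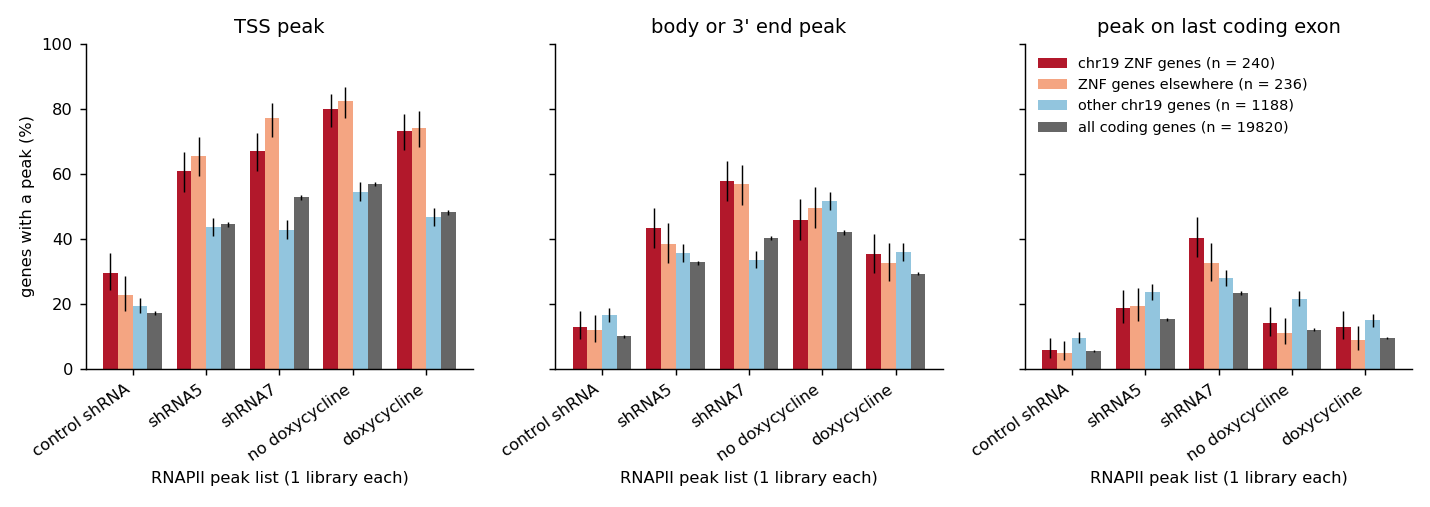
Percent of genes with a TSS peak, with a body or 3′ end peak, and with any peak on the last coding exon, in each RNAPII list, for the 240 chromosome 19 ZNF genes, 236 ZNF genes elsewhere, 1188 other chromosome 19 genes and all 19820 protein-coding genes. Bars start at 0, error bars are 95% Wilson intervals of counting error, and the red bar of TSS peaks stands above the grey bar in every list, from 29.6% in the control list to 80.0% without doxycycline.

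Among the zinc finger genes the number with a TSS peak upon shRNA5 was 2.06 times that of the control list (counting interval 1.55 to 2.73), and upon shRNA7 2.27 times (counting interval 1.72 to 3.0). Over all protein-coding genes the folds were 2.58 and 3.06. A TSS peak that was missing from the control list appeared with both hairpins in 68 genes (28.3%, interval 23 to 34.3%), against 25.9% of all protein-coding genes, 40.7% of the ZNF genes elsewhere and 19.9% of the other chromosome 19 genes. The share of zinc finger genes that gained a call with both hairpins was therefore close to the background. The reverse, a TSS peak with the control hairpin and with neither RECQL5 hairpin, was found in 1 gene (0.417%, interval 0.0736 to 2.32%), which was ZNF226, against 0.0555% of all genes. Leaving out the ZNF565 to ZNF573 genes, the counts were 55, 123 and 144 of 216 with the control, shRNA5 and shRNA7 hairpins.

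The folds turned when lists of equal length were compared. When the shRNA5 and shRNA7 lists were shortened to their 5287 strongest peaks by significance score, which is −10 times the log10 of the peak's p-value, 41 (17.1%, interval 12.8 to 22.4%) and 43 zinc finger genes (17.9%, interval 13.6 to 23.3%) had a TSS peak, against 71 in the control list of the same length. The folds were then 0.577 and 0.606, in the other direction. All protein-coding genes, treated in the same way, stood at 17.3%, 18.8% and 18.4% with the control, shRNA5 and shRNA7 hairpins. In lists of equal length the excess of zinc finger genes over all protein-coding genes was thus present in the control list and absent from both RECQL5 hairpin lists, and this difference was not tested. A fixed score gave another picture. With peaks of score 100 or more the zinc finger genes stood at 10.4% in the control list (interval 7.16 to 14.9%), against 7.88% of all genes, and above all genes upon both hairpins, at 42.9% against 35.2% for shRNA5 and 54.2% against 44.5% for shRNA7. When the doxycycline lists were made equal in length the excess stayed, at 75.4% without the drug and 73.3% with it, against 54.7% and 48.2% of all genes.

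**Figure D2:**
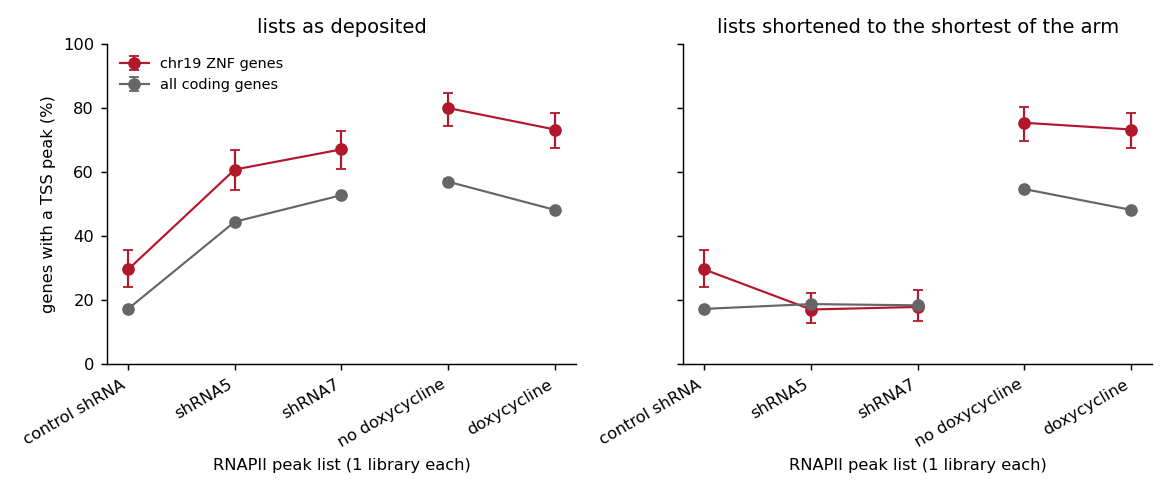
Percent of the 240 chromosome 19 ZNF genes (red) and of all 19820 protein-coding genes (grey) with a TSS peak, in the lists as deposited (left) and with each list shortened to its strongest peaks, as many as the shortest list of its arm holds (right). Error bars are 95% Wilson intervals of counting error, lines join lists of an arm only, and in the right panel the red points of shRNA5 and shRNA7 lie at 17.1% and 17.9%, beside grey points at 18.8% and 18.4%.

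Across the 5 lists the most frequent pattern was a TSS peak in every list but the control, with 61 genes (25.4%, interval 20.3 to 31.3%), close to the 22.2% of all protein-coding genes. Another 56 genes (23.3%) had a TSS peak in all 5 lists, against 15.8% of all protein-coding genes, and 37 genes (15.4%, interval 11.4 to 20.5%) had one in no list, against 38.6%. A further 20 genes (8.33%) had it in the shRNA7 list and both doxycycline lists, against 4.94% of all genes, and 12 in both doxycycline lists alone, against 2.04%. The genes with a TSS peak upon shRNA5 or shRNA7 and not in the control list were nearly all called without doxycycline as well, 94.9% of 78 genes for shRNA5 and 93.0% of 100 genes for shRNA7. Their peaks were weaker than those shared with the control list. The median TSS peak held 70.0 tags upon shRNA5 where the control list had none and 146 tags where it had one, and 104 against 285 tags upon shRNA7. Neither comparison was made over all protein-coding genes. Among all genes, 5129 gained a TSS peak with both RECQL5 hairpins, and 4395 of these had one in both doxycycline lists. Among the zinc finger genes the numbers were 68 and 61. In all, 208 of the 240 genes had a peak of some kind in at least 1 list, and 32 had none in any list. This count was not made over all protein-coding genes. In the control, shRNA5, shRNA7, no doxycycline and doxycycline lists, 35.4%, 67.5%, 75.4%, 82.1% and 75.8% of the zinc finger genes had any peak. Over all protein-coding genes the shares were 22.5%, 52.4%, 60.5%, 64.1% and 53.5%.

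Where a TSS peak was present in both lists of a pair, its shape could be compared. From the control to the shRNA5 list the TSS peak was longer in 52 of 68 genes, with a median ratio of 1.21, and denser in 58 of 68, with a median ratio of tags per kb of 1.25. From the control to shRNA7 it was longer in 56 of 61 genes (median ratio 1.74) and denser in 61 of 61 (median ratio 1.42). With doxycycline the TSS peak was shorter in 100 of 169 genes (median ratio 0.944) and denser in 128 of 169 (median ratio 1.21). Denser TSS peaks were the rule over all protein-coding genes too, in 95.6%, 97.8% and 69.8% of those compared, with median ratios of 1.35, 1.58 and 1.12 for shRNA5, shRNA7 and doxycycline. In the hairpin arm the lengthening on zinc finger genes was smaller than over all protein-coding genes, with median length ratios of 1.5 upon shRNA5 and 2.21 upon shRNA7, and than over the other chromosome 19 genes, with 1.46 and 2.81. With doxycycline the length ratio was 0.895 over all genes and over the other chromosome 19 genes. The level was ordinary, since the median zinc finger gene with a TSS peak lay at percentile 52.2, 49.2, 51.1, 47.9 and 54.0 of tags per kb among all protein-coding genes with a TSS peak in the control, shRNA5, shRNA7, no doxycycline and doxycycline lists. Summits sat at the start site, at a median of 0.5 to 28.0 bp downstream of it, and 80.3% to 90.1% of them lay within 250 bp.

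**Figure D3:**
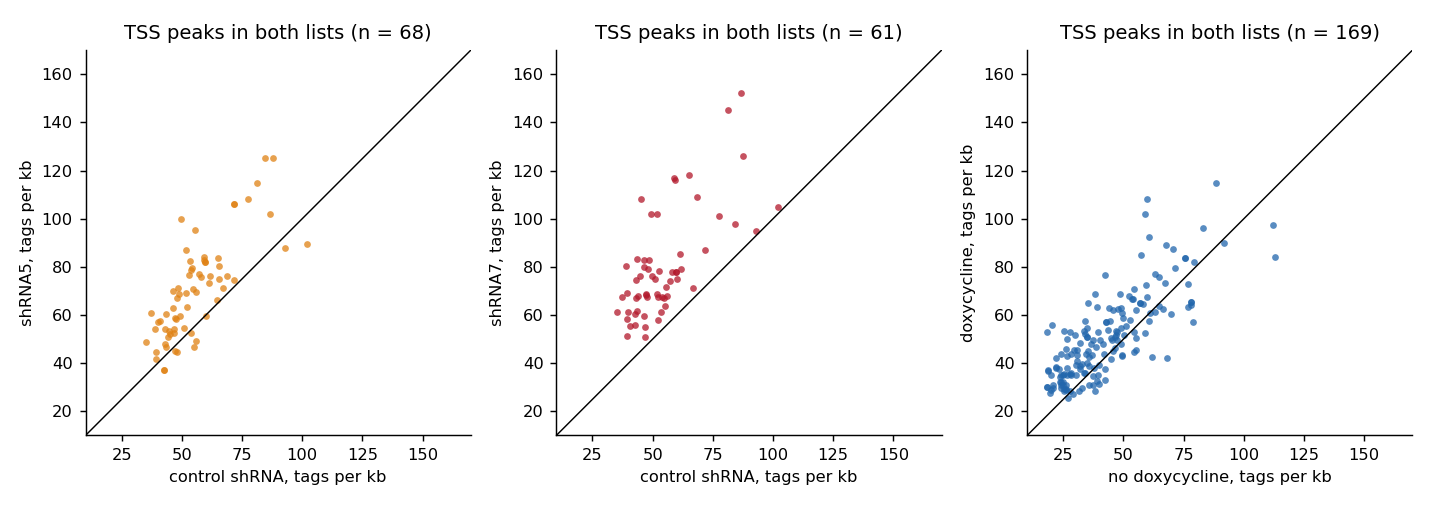
Tags per kb in the TSS peak of each chromosome 19 ZNF gene, shRNA5 against control shRNA (68 genes), shRNA7 against control shRNA (61 genes) and doxycycline against no doxycycline (169 genes), on linear axes. Each point is 1 gene with a TSS peak in both lists and the line marks equal density; 58, 61 and 128 points lie above it.

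The densest TSS peaks present in all 5 lists belonged to ZNF566, ZNF260, ZNF225, ZNF573, ZNF383 and ZNF793, which were picked for this level out of 56 genes. ZNF566 (ENSG00000186017, chr19:36936021-36980804, minus strand, 7 fingers) held 246, 341 and 495 tags in its TSS peak with the control, shRNA5 and shRNA7 hairpins and 140 and 156 without and with doxycycline. ZNF260 (chr19:37001589-37019173, minus strand), the human counterpart of a mouse factor that acts with GATA4 in heart muscle, held 264, 412 and 481 tags and then 127 and 126. For both genes the hairpin lists were ordered control, shRNA5, shRNA7, while the doxycycline lists lay close together. Over all protein-coding genes compared, the TSS peak held more tags than in the control list in 98.1% upon shRNA5 and 99.4% upon shRNA7. ZNF225 (chr19:44616334-44638975, plus strand) held 302, 1499 and 1212 tags, in TSS peaks of 2974, 16761 and 11584 bp at 102, 89.4 and 105 tags per kb. The long peaks ran upstream over its neighbor ZNF224 (chr19:44602860-44619620 upon shRNA5 and chr19:44607114-44618697 upon shRNA7), for which they count as 3′ end peaks. ZNF383 held 200, 299 and 989 tags, with peaks of 2369, 2391 and 10124 bp at 84.4, 125 and 97.7 tags per kb. The largest counts of ZNF225 and ZNF383 thus came with long peaks rather than with the densest ones among the hairpin lists, except that ZNF225 upon shRNA7 was slightly denser than in the control list. ZNF573 held 186, 215 and 321 tags, and ZNF793 held 202, 190 and 420. Of the 6 genes 5 lie in the ZNF565 to ZNF573 group and ZNF225 in the ZNF575 to ZNF180 group.

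Single genes departed from the common order. ZNF226 (ENSG00000167380, chr19:44669226-44682534, plus strand), a neighbor of ZNF224 and ZNF225, had a TSS peak of 322 tags over 4115 bp with the control hairpin and peaks of 128 and 182 tags without and with doxycycline, but no peak anywhere on the gene upon shRNA5 or shRNA7. The doxycycline lists each gave it 6 body and 3′ end peaks as well. Its control peak had a significance score of 54.5, close to the lowest score of 50 in that list. Conversely ZNF304 (chr19:57862639-57871266, plus strand), a KRAB protein described as recruiting a repressor complex to the INK4-ARF locus, was the 1 gene with a TSS peak with both RECQL5 hairpins, at 58 tags upon shRNA5 and 86 upon shRNA7, and in no other list, a pattern of 0.863% of all genes. Another 9 genes had a TSS peak in every list except shRNA7 (3.75%), against 0.974% of all genes and 3.87% of the other chromosome 19 genes, among them ZNF565 and ZNF146, which share a peak of 346, 550, 233 and 245 tags in the control, shRNA5, no doxycycline and doxycycline lists, with the nearest shRNA7 peak 37085 bp from ZNF565. Of these 9, 6 lie in the stretch where the shRNA7 list was thin, and the part of that in their pattern cannot be told apart from the hairpin.

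Away from the start site, 31 zinc finger genes had a body or 3′ end peak in the control list (12.9%, interval 9.25 to 17.8%), against 10.1% of all protein-coding genes. Upon shRNA5 there were 104 (43.3%, interval 37.2 to 49.7%), against 32.8%, and upon shRNA7 139 (57.9%, interval 51.6 to 64.0%), against 40.3%. Without doxycycline there were 110 (45.8%, interval 39.6 to 52.2%), against 42.1%, and with it 85 (35.4%, interval 29.6 to 41.7%), against 29.4%. The excess over all genes was thus widest upon shRNA7, where the other genes of chromosome 19 stood at 33.6% and the ZNF genes elsewhere at 56.8%. More body and 3′ end peaks with both RECQL5 hairpins than with the control hairpin were counted in 75 genes (31.2%, interval 25.7 to 37.4%), against 24.1% of all genes, and fewer with both in 3 genes (1.25%), against 1.72%.

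Counted as distinct peaks, body and 3′ end peaks of the zinc finger genes numbered 32 with the control hairpin, 177 with shRNA5 and 287 with shRNA7. The shRNA5 number is 5.53 times the control (interval 3.8 to 8.04) and the shRNA7 number 8.97 times (interval 6.24 to 12.9). All protein-coding genes gave 6.61 and 9.72, ZNF genes elsewhere 6.79 and 11.2, and the other chromosome 19 genes 3.44 and 2.79. Per TSS peak, the number of body and 3′ end peaks was 0.464 for the control hairpin, 1.12 for shRNA5 and 1.61 for shRNA7. Body and 3′ end peaks thus differed between the hairpin lists by a larger factor than TSS peaks, as over all genes. The direction depended on how peaks were chosen. With a fold enrichment over background of at least 10 the genes held 18, 13 and 45 such peaks with the control, shRNA5 and shRNA7 hairpins, a fold of 0.722 for shRNA5 and 2.50 for shRNA7, and in lists of equal length the folds were 0.875 and 1.38.

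Peaks at the gene end were found on 18 zinc finger genes in the control list (7.50%, against 6.48% of all protein-coding genes), on 55 upon shRNA5 (22.9%, against 19.8%) and on 93 upon shRNA7 (38.8%, interval 32.8 to 45.0%, against 26.5%). In the doxycycline arm they were found on 29 genes without the drug (12.1%, against 16.1%) and on 20 with it (8.33%, against 12.1%). The share was thus above that of all genes upon shRNA7, where ZNF genes elsewhere stood at 34.7% (interval 29.0 to 41.0%). In the doxycycline arm the share of the chromosome 19 zinc finger genes was below that of all genes. The intervals of 8.55 to 16.8% and 5.46 to 12.5% still took in the shares of all genes, and the other chromosome 19 genes reached 30.4% and 20.1%. Along the gene the summits of body and 3′ end peaks lay at a median of 87.6% of the way from gene start to gene end for the control hairpin, 68.9% for shRNA5 and 69.3% for shRNA7. It was 53.3% in the untreated and 56.2% in the treated cells of the doxycycline arm. Over all protein-coding genes these medians were 87.4%, 68.8%, 65.5%, 60% and 59.4%.

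**Figure D4:**
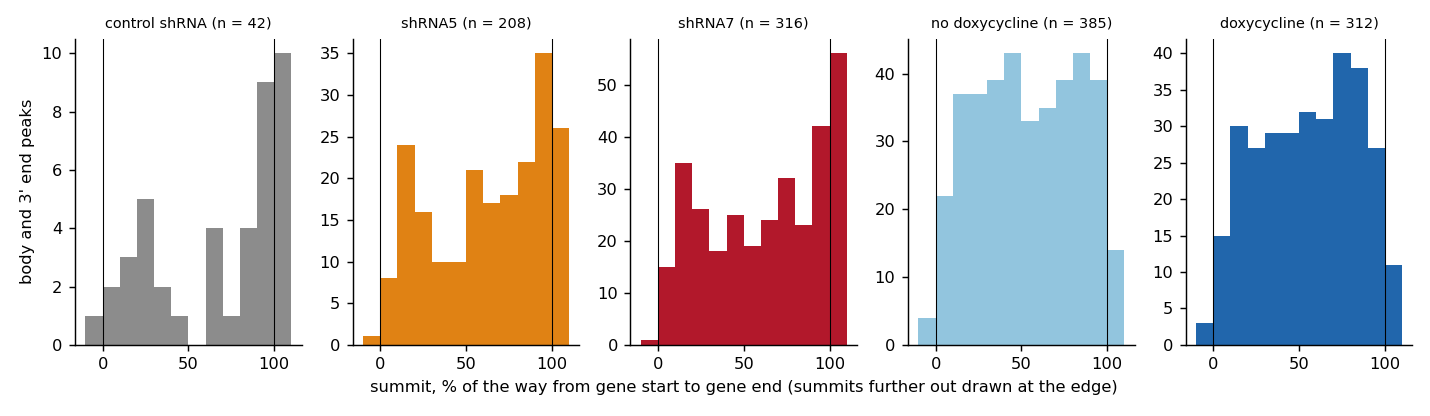
Number of body and 3′ end peaks of chromosome 19 ZNF genes by the place of the summit, as a percent of the way from gene start (0) to gene end (100), in each RNAPII list, with 1 library per list and a separate vertical axis per panel. In the shRNA7 panel (316 gene and peak pairs) the tallest bar lies past the gene end, while the 385 pairs without doxycycline are spread over the gene, with a median of 53.3%.

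The last coding exon, with its array of fingers, makes up 4.80% of the summed length of these genes, against 0.542% over all protein-coding genes. Any peak touched it in 14 genes in the control list (5.83%, against 5.51% of all genes), in 45 upon shRNA5 (18.8%, against 15.3%) and in 97 upon shRNA7 (40.4%, interval 34.4 to 46.7%, against 23.5%). Without doxycycline it was touched in 34 genes (14.2%, against 12.1%) and with it in 31 (12.9%, against 9.57%). More zinc finger genes thus had RNAPII called over the finger exon upon shRNA7 than in any other list. The comparison groups also had their highest share upon shRNA7. ZNF genes elsewhere stood at 32.6% (interval 27.0 to 38.8%) and the other chromosome 19 genes at 27.9%. Of the gene and peak pairs for body and 3′ end peaks, 28.6% of 42 touched this exon with the control hairpin, 18.8% of 208 with shRNA5 and 29.7% of 316 with shRNA7 (interval 25 to 35%), against 24.5%, 13.7% and 14.1% over all protein-coding genes. ZNF genes elsewhere gave 27.3%, 16.9% and 17.2% (interval upon shRNA7 13.7 to 21.3%). The other chromosome 19 genes, with their far shorter exon, gave 28.6%, 21.5% and 27.2% (interval upon shRNA7 24.0 to 30.5%), so contact with the last coding exon in the hairpin lists was about as frequent on chromosome 19 genes that are not zinc finger genes. In the doxycycline arm it was 11.7% of 385 pairs without and 10.9% of 312 with the drug, against 5.59% and 5.79% over all genes and 7.93% and 7.70% over the other chromosome 19 genes. ZNF genes elsewhere gave 5.29% and 7.84%. Summits fell inside this exon less often, in 2.38%, 6.73%, 5.70%, 8.05% and 7.37% of pairs in the control, shRNA5, shRNA7, no doxycycline and doxycycline lists, against 0.605% to 1.25% over all genes and 0.714% to 1.59% over the other chromosome 19 genes. ZNF genes elsewhere gave 6.06%, 5.06%, 3.39%, 2.27% and 3.53% in the same order. The control values rest on 1 of 42 pairs for the chromosome 19 zinc finger genes and 2 of 33 for ZNF genes elsewhere. Median lengths of body and 3′ end peaks on these genes were 3146, 2277 and 2774 bp in the hairpin lists and 552 and 594 bp in the doxycycline arm. The part of exon length and peak length in these shares was not tested. A few TSS peaks also ran as far as the last coding exon, 3 for the control hairpin, 8 for shRNA5 and 11 for shRNA7, and 0 and 2 in untreated and doxycycline-treated cells.

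ZNF586, ZNF254, ZNF431, ZNF345, ZNF461 and ZNF566 had the most body and 3′ end peaks with the RECQL5 hairpins relative to the control, and were picked for that. These counts are per gene and can include peaks at the start of another gene within or beside the span. The peaks of ZNF586 lay for the most part downstream of its finger exon (58290119 to 58291161). ZNF586 (ENSG00000083828, chr19:58281023-58331307, plus strand, 8 fingers) had 0, 8 and 7 such peaks with the control, shRNA5 and shRNA7 hairpins and 6 and 3 without and with doxycycline. No TSS peak was called on ZNF586 in the hairpin lists, and those of the doxycycline arm held 17 and 18 tags. Every list but the control held peaks on ZNF586 with summits at 58326198 to 58326260 and at 58330913 to 58331213. Whether these mark the starts of other genes was not examined. ZNF254 (chr19:24216207-24312770, plus strand) had 0, 3 and 9 body and 3′ end peaks and then 6 and 3. Its shRNA7 3′ end peak (chr19:24309764-24315662) held 362 tags, reached a significance score of 1003 and covered the end of the finger exon. ZNF431 (ENSG00000196705, chr19:21324827-21378856, plus strand, 12 fingers) had 0, 6 and 5 peaks and then 0 and 3. On ZNF431 the shRNA5 peaks near the 3′ end were 5 separate ones of 49 to 143 tags, whereas shRNA7 gave 1 peak of 12877 bp and 814 tags (chr19:21365799-21378675) that begins in the finger exon printed above and runs to the gene end. ZNF461 (chr19:37127520-37157755, minus strand) had 0, 5 and 4 peaks and then 3 and 5. Its finger exon was covered by a peak of 8100 bp and 476 tags upon shRNA5 and of 12596 bp and 800 tags upon shRNA7, and the summits of both lay inside that exon. In ZNF461 and ZNF431 a peak over the finger exon was called upon shRNA7 and none was called there in the control list or in either doxycycline list. ZNF345 (chr19:37341263-37403931, plus strand) had 2, 7 and 6 peaks and then 6 and 8. The strongest of them lay past the finger exon, at chr19:37377725-37383802 with 364 tags in the control list, chr19:37377691-37384124 with 530 upon shRNA5 and chr19:37370605-37386753 with 1274 upon shRNA7, while the finger exon itself was touched by 1 peak, of 86 tags, upon shRNA7. In each hairpin list a 3′ end peak counted for ZNF345 had its summit past the gene end. The distances were 3230, 3547 and 3570 bp with the control, shRNA5 and shRNA7 hairpins. These peaks cover the promoter window of the neighbor ZNF568 that is printed below. ZNF566 had 0, 3 and 5 body and 3′ end peaks and then 2 and 0.

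A body or 3′ end peak without a TSS peak in any list was found in 5 genes, a count not made over all protein-coding genes. Of these 5, ZNF814, ZNF404, ZNF135 and ZNF177 had the most body and 3′ end peaks. ZNF814 (chr19:58360099-58400442, minus strand, 23 fingers) had 1, 4 and 3 such peaks with the control, shRNA5 and shRNA7 hairpins and 5 and 3 without and with doxycycline. Each of the 5 lists held a ZNF814 peak with its summit at 58361148 to 58361283. Whether it marks the start of another gene was not examined. Upon shRNA5 1 of the other ZNF814 peaks held 732 tags over 10968 bp (chr19:58375541-58386508) and upon shRNA7 1306 tags over 16517 bp (chr19:58370166-58386682), and both reached over the finger exon. ZNF404 had 0, 0, 1, 1 and 2 peaks, and those of 34 and 42 tags without and with doxycycline sat at the 5′ boundary of its annotated span (44405537), which is not the start of a protein-coding transcript. ZNF135 had 0, 1, 1, 1 and 0 and ZNF177 0, 0, 1, 0 and 1.

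In the doxycycline arm the number of zinc finger genes with a TSS peak was 0.917 times as large with the drug as without (interval 0.747 to 1.12), and that of body and 3′ end peaks 0.826 times (334 and 276 peaks, interval 0.705 to 0.969). All protein-coding genes gave 0.846 and 0.734 and the other chromosome 19 genes 0.856 and 0.623. The counting interval of the TSS fold included 1.0, but it treats the counts of the lists as independent, although 169 genes had a TSS peak in both. A TSS peak was called without doxycycline and not with it in 23 genes (9.58%, against 9.94% of all protein-coding genes) and the reverse in 7 (2.92%, interval 1.42 to 5.90%, against 1.19%). Fewer body and 3′ end peaks with doxycycline were counted in 70 genes (29.2%, against 29.0%) and more in 30 (12.5%, interval 8.90 to 17.3%, against 9.18%). Genes whose TSS peak was not called with the drug had weak peaks without it, of 12 tags at the median against 42.0 for the 169 genes that had one in both lists. Among the strongest of them were ZNF799 with 31 tags, ZNF175, described as a repressor of HIV-1 in macrophages, with 19, ZNF865 with 17 and ZNF549 with 16. On the other side ZNF628 had a TSS peak of 28 tags with doxycycline alone, ZNF554 and ZNF681 of 26 tags and ZNF577 of 22 tags. The smallest peaks of the lists without and with doxycycline held 9 and 11 tags. When peaks had to score 100 or more, the fold in body and 3′ end peaks turned to 1.49 (61 and 91 peaks), and in lists of equal length it was 1.31 (210 and 276 peaks).

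The position groups differed from one another. In the ZNF565 to ZNF573 group (24 genes) 16, 23 and 17 genes had a TSS peak with the control, shRNA5 and shRNA7 hairpins and all 24 had one without and with doxycycline. In the ZNF175 to ZNF331 group (39 genes) the numbers were 6, 16, 25, 29 and 23 in the same order of lists, and in the ZNF653 to ZNF791 group (25 genes) 2, 11, 18, 20 and 17. In the control list a TSS peak was thus present on 66.7%, 15.4% and 8.0% of the genes of these 3 groups, the highest and the lowest among the 8 larger groups, with the ZNF175 to ZNF331 group second lowest. The ZNF575 to ZNF180 group (23 genes) gave 7, 17, 16, 22 and 20, the ZNF264 to ZNF446 group (41 genes, near the chromosome end) 13, 29, 30, 32 and 31, and the ZNF628 to ZNF835 group (16 genes) 3, 9, 9, 13 and 10. In the ZNF101 to ZNF254 group (37 genes) 13 genes had a TSS peak in all 5 lists and 12 had no peak of any kind in any list, so that most of this group had the same TSS call in every list.

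Body and 3′ end peaks were spread still less evenly. The ZNF101 to ZNF254 group held 0, 22 and 69 of them with the control, shRNA5 and shRNA7 hairpins and 48 and 34 without and with doxycycline. The ZNF175 to ZNF331 group held 1, 3 and 26 and then 9 and 2, although it has about as many genes. The ZNF565 to ZNF573 group held 17, 58 and 53 and then 116 and 105, and the ZNF575 to ZNF180 group 3, 18 and 23 and then 82 and 76. Thus the pair of groups that held the most such peaks in the doxycycline arm did not hold the most upon shRNA7, where the ZNF264 to ZNF446 group led with 84, after 10 in the control list and 63 upon shRNA5. Median density of TSS peaks was 65.5, 82.1 and 77.7 tags per kb with the control, shRNA5 and shRNA7 hairpins in the ZNF565 to ZNF573 group and 45.0, 47.6 and 51.3 in the ZNF175 to ZNF331 group.

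**Figure D5:**
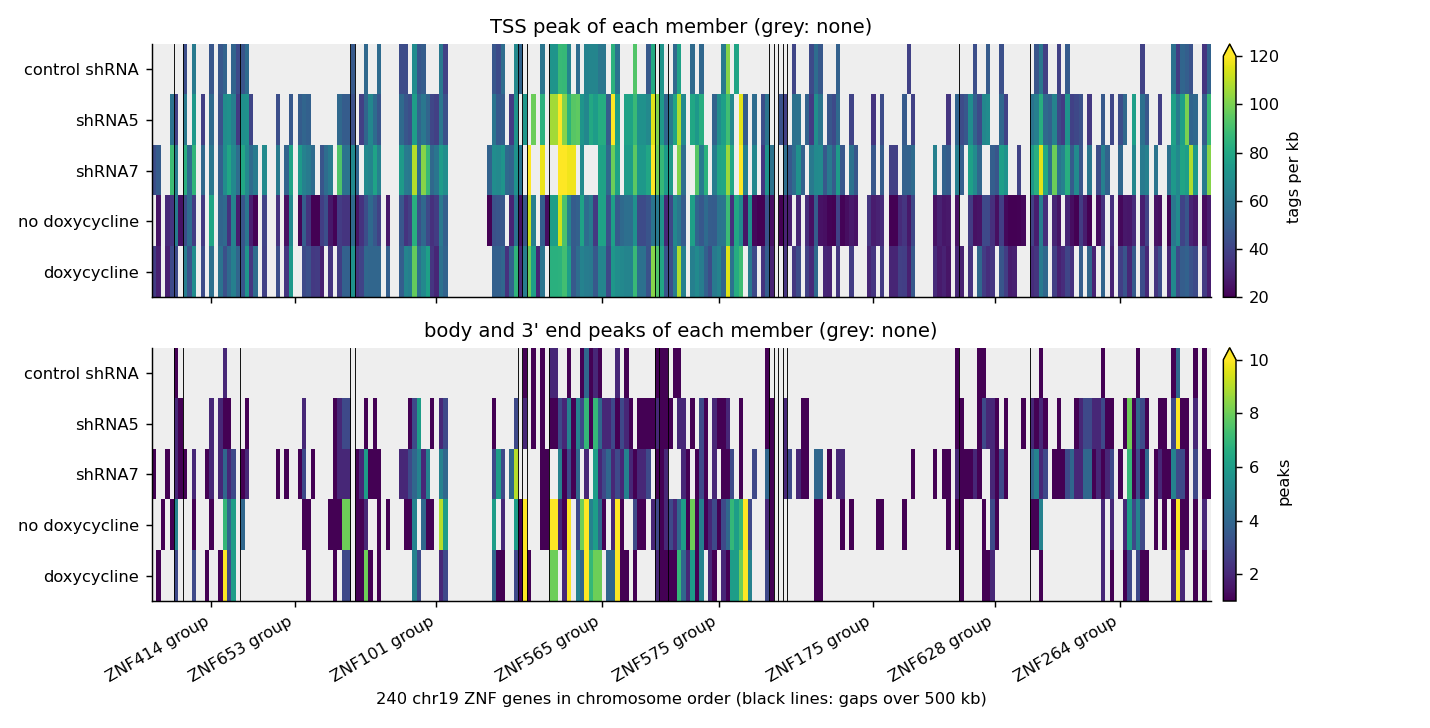
The 240 chromosome 19 ZNF genes in chromosome order, 1 column each and 1 row per RNAPII list, colored by tags per kb of the TSS peak (top, colors stop at 120) and by the number of body and 3′ end peaks (bottom, colors stop at 10), with grey for none. The ZNF565 group carries TSS peaks on all 24 genes without and with doxycycline, and the ZNF175 group on 6 of 39 genes in the control row.

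The promoters were examined for features that the peaks might share. RefSeq promoter windows of 300 bases, from 250 before to 50 after the start, were found for 210 of the 240 genes. The RefSeq table is on GRCh38.p14, and windows were matched to genes by symbol. Only the windows printed below were also found letter for letter on GRCh37, whose coordinates are given. CpG dinucleotides were counted relative to the number that the base content would give. This ratio had a median of 0.765 in the zinc finger genes, against 0.768 over all genes. It was lower where no list had a TSS peak, with a median of 0.615 (29 genes with a window) against 0.798 for the genes with a TSS peak in 1 to 4 lists (128 genes) and 0.742 for those with one in all 5 (53 genes). Below 0.6 lay 37.9%, 15.6% and 26.4% of these genes. The ZNF101 to ZNF254 group lay low as a whole, with medians of 0.414 (7 genes), 0.492 (10 genes) and 0.443 (12 genes) for no list, 1 to 4 lists and all 5. The remaining genes had 0.696 (22 genes), 0.813 (118 genes) and 0.782 (41 genes). Both inside and outside that group the genes without a TSS peak thus had the lowest median, by differences that were small beside their range of 0.176 to 1.06 outside it, and they were not tested.

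The letters CCGGAAG on either strand, the core recognized by many ETS-family transcription factors, occurred in 93 of the 210 windows (44.3%, interval 37.7 to 51.0%), against 14.4% of all 15303 promoter windows, 13.0% of those of other chromosome 19 genes and 37.1% of those of ZNF genes elsewhere. The 105 matches sat close to the start, 94 of them (89.5%) within 100 bases with a median position of −18.0 bases relative to it. A match is a description of letters and not a bound site. The following windows show it with and without an RNAPII peak, printed 5′ to 3′ on the strand of the gene. Capitals mark CCGGAAG or its reverse complement in the first 4, and the CpG dinucleotides in ZNF404. ZNF460 and ZNF568 had a TSS peak in all 5 lists, ZNF547 in every list but the control, and ZNF534 in none in spite of the match. ZNF404 is the window with the fewest CpG dinucleotides, 2, among the genes with a TSS peak in no list. That window lies inside the gene, away from the doxycycline arm peaks described above at the 5′ boundary of its annotated span.
ZNF460, chr19:57791100-57791399, plus strand: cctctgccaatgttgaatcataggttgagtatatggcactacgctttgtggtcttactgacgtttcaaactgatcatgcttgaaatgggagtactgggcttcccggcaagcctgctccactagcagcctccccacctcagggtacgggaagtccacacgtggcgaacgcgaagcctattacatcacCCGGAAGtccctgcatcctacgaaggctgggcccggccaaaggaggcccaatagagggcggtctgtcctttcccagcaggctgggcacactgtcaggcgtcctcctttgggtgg
ZNF568, chr19:37406984-37407283, plus strand: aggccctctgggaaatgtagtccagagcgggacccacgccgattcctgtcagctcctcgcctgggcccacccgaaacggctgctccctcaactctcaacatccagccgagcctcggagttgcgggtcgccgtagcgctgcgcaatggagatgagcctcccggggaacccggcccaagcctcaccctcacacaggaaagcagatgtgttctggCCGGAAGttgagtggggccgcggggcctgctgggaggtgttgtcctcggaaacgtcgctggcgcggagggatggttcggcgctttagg
ZNF547, chr19:57874669-57874968, plus strand: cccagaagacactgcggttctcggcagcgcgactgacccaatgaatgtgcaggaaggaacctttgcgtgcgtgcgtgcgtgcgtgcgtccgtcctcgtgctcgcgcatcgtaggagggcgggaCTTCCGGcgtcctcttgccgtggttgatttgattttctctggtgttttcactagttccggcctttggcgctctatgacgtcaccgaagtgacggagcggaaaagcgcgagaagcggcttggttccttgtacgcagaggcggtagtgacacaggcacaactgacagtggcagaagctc
ZNF534, chr19:52932151-52932450, plus strand: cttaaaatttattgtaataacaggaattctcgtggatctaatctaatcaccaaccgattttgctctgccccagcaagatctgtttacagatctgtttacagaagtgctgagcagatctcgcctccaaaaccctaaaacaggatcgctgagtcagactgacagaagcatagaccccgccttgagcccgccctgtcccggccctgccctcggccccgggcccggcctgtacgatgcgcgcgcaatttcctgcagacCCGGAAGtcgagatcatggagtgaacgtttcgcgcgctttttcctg
ZNF404, chr19:44388067-44388366, minus strand: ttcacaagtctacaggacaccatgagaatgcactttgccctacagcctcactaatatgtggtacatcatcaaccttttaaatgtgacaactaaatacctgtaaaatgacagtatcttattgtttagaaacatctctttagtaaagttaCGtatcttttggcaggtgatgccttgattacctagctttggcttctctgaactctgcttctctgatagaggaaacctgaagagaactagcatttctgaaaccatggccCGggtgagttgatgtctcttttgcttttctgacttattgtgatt
Within the zinc finger genes the ETS letters did not go with presence of a TSS peak. It was called on 32.3% of the 93 genes with the letters and 32.5% of the 117 without in the control list, 59.1% and 64.1% upon shRNA5, 66.7% and 69.2% upon shRNA7, 81.7% and 81.2% without doxycycline, and 74.2% and 76.1% with it. Over all protein-coding genes the same split gave 35.5% and 16.2%, 77.0% and 42.6%, 82.7% and 51.2%, 88.4% and 55.2%, and 82.3% and 46.2%. The zinc finger genes without the letters thus stood well above other genes without them in every list.

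A TSS of another gene on the opposite strand lay within 1 kb of 26 zinc finger genes, and 13 of these partners were themselves zinc finger genes of the set. Such paired promoters had a TSS peak in 11, 24, 21, 26 and 25 of 26 genes in the control, shRNA5, shRNA7, no doxycycline and doxycycline lists, against 28.0%, 57.0%, 65.4%, 77.6% and 70.6% of the 214 genes without a partner. Without doxycycline every zinc finger gene with a partner thus had a TSS peak. The same split was not made over all protein-coding genes, so nothing here shows whether the difference is particular to zinc finger genes. A peak between such genes counts for both, and leaving out peaks shared with another protein-coding gene lowered the counts of zinc finger genes with a TSS peak to 53, 101, 110, 139 and 127.

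Several of the genes have known roles. ZNF91, which represses SVA retrotransposons (chr19:23487793-23578273, minus strand, 31 fingers), had TSS peaks of 48, 58 and 93 tags with the control, shRNA5 and shRNA7 hairpins and 35 and 38 without and with doxycycline, and its body held 0, 0 and 6 peaks and then 0 and 1. ZNF93, which represses L1 elements (chr19:20011722-20074273, plus strand), had no TSS peak in the control list, 71 and 133 tags with shRNA5 and shRNA7, and 52 and 51 without and with doxycycline. For both repressors of transposable elements shRNA7 gave the highest hairpin count and the counts without and with the drug lay close together. The same was common over all protein-coding genes with a TSS peak in both lists compared. There shRNA7 gave more tags than the control in 99.4% and more than shRNA5 in 91.8%. The median ratio of tags with doxycycline to those without was 1.00. ZNF274 (ENSG00000171606, chr19:58694396-58724928, plus strand), known for bringing SETDB1 to the 3′ ends of zinc finger genes, held 157, 237 and 469 tags and then 91 and 106, with 1, 3 and 5 body and 3′ end peaks and then 1 and 2. ZNF224, a KRAB repressor of aldolase A, held 163, 388 and 777 tags in peaks of 2645, 5083 and 9804 bp, and then 92 and 74. ZNF473, a component of histone pre-mRNA processing, had no TSS peak in the control list and then 64, 98, 11 and 16 tags. ZNF331 was similar, with none and then 61, 115, 17 and 13.

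ZNF507 and ZNF536 stand alone on the chromosome and do not share the single finger exon, with 364 and 242 coding bp in the last coding exon. ZNF507 (chr19:32836500-32878573, plus strand, 9 fingers) had TSS peaks of 82 and 86 tags without and with doxycycline and 12 and 16 body and 3′ end peaks, the latter spread along the gene. Upon shRNA5 a single peak of 20873 bp and 1520 tags (chr19:32835477-32856349) covered its start, with the summit 8818 bp downstream, and upon shRNA7 no peak was called on the gene. ZNF536 (chr19:30715798-31204493, plus strand), the longest of the genes and a repressor of neuronal differentiation, had a TSS peak of 104 tags in the control list, none upon shRNA5, 360 tags upon shRNA7, and 26 and 11 tags without and with doxycycline. The gene has several start sites, and these values are for 1 peak per list. Those of the doxycycline arm (chr19:30719174-30720271 without the drug) lay downstream of the control peak (chr19:30714776-30716771), while the shRNA7 peak (chr19:30715171-30721364) covered both places.

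The partners through which KRAB zinc finger proteins act were followed as a list of 12 genes: TRIM28, the corepressor itself, SETDB1 and its partner ATF7IP, the HP1 proteins CBX1, CBX3 and CBX5, MPHOSPH8, PPHLN1 and TASOR of the HUSH silencing complex with MORC2, and DNMT1 and UHRF1 of maintenance DNA methylation. A TSS peak was present on 6 of them for the control hairpin, 12 for shRNA5 and 12 for shRNA7, and on 11 and 12 in untreated and doxycycline-treated cells, and they held 4, 37, 53, 123 and 72 body and 3′ end peaks. Of the 123 without doxycycline, 39 lay on DNMT1 and 29 on UHRF1. Over all protein-coding genes the distinct body and 3′ end peaks numbered 1895, 12518, 18418, 28835 and 21153 in the same order of lists. TRIM28, which lies on chromosome 19 itself (59055431 to 59062089), held 244, 389 and 3268 tags in its TSS peak in the hairpin lists, where the shRNA7 peak spanned 22316 bp, and 126 and 99 without and with doxycycline. SETDB1 had no TSS peak in the control list and then 97, 135, 18 and 43 tags. In CBX3 the TSS peaks held 3166, 6777 and 9205 tags and then 1113 and 1363. All protein-coding genes also had more TSS peaks in the longer lists, with 17.3% in the control list against 44.5% and 52.8% in those of shRNA5 and shRNA7. Their shares without and with doxycycline were 57.0% and 48.2%.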

How the data were processed

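RNAPII ChIP-seq reads of 5 libraries and of 4 IgG libraries were made into peak lists by the authors, 1 list per RNAPII library, with CASAVA 1.8, Bowtie 0.12.7 and MACS 1.4.2 named in the submitters' processing notes and hg19 (GRCh37) as the build. Each hairpin list had its own IgG library as background, while the labels name 1 untreated IgG library for both doxycycline lists. Bowtie was run with its best option, and reads in regions blacklisted for mappability were removed. Whether reads that match several places equally well were kept is not given in the sources used here. The deposited columns hold, for each peak, its position, the count of tags, a significance score (−10 times the log10 of p), a ratio (fold enrichment over background) and a false discovery rate in percent. Every deposited peak had a score of at least 50. No library totals were used, so tag counts were not scaled.

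Genes, transcripts and coding exons came from GENCODE release 44 on GRCh37, which may be newer than the annotation the authors used. Peaks were assigned with a least overlap of 1 bp. Fingers were counted in translated GENCODE coding sequences as C, 2 to 4 residues, C, 12 residues, H, 3 to 5 residues, H, instead of in RefSeq proteins as first planned. Shares carry 95% Wilson intervals, and folds of counts carry the interval of the corresponding odds. The interval of a fold treats its counts as independent, though they are taken over the same genes. With 1 library per group no test between conditions was made and no p-value is given. All steps used Python 3.11.15 with pandas 2.3.3, NumPy 2.4.6, SciPy 1.17.1 and Biopython 1.88. Only the assignment of peaks to genes was tested on simulated peaks.

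The genes and the lists were chosen with earlier results of these data known. Genes named with values were those with a TSS peak in all 5 lists and the highest mean percentile of tags per kb, the most body and 3′ end peaks upon both RECQL5 hairpins beyond the control, a TSS peak in the control alone of the hairpin lists, in both RECQL5 hairpin lists alone or in 1 doxycycline list alone of that arm, or no TSS peak but other peaks, and 8 genes named in any case. Genes in sequence displays and the 9 genes without an shRNA7 TSS peak were chosen after their values were seen. Alternatives were stricter filters on score, false discovery rate and fold enrichment, lists of equal length, merged peaks, other TSS definitions, placement by the summit, and omission of shared peaks.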

Additional observations from a re-analysis of the deposited data

Results flagged for a closer look

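In 2 genes the RECQL5 hairpins stood on opposite sides of the control list, and the difference between the hairpins was not tested, as each rests on 1 library. ZNF507 had 1 body or 3′ end peak with the control hairpin, 2 upon shRNA5 and 0 upon shRNA7. The TSS peak of ZNF793 held 202 tags with the control hairpin, 190 upon shRNA5 and 420 upon shRNA7. ZNF793 lies in the ZNF565 to ZNF573 group, where the shRNA7 list touched fewer of the control peaks. Among all 240 zinc finger genes, 8 had more body and 3′ end peaks with one RECQL5 hairpin and fewer with the other than in the control list. The same count over all protein-coding genes was not made.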

How the results depend on the processing

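The 8 main values were recomputed under 10 alternatives, which gave 68 values. Of these 51 lay within the counting interval of the main value without reversal, 11 fell outside it without reversal, and 6 were reversed. The filter on false discovery rate could not change the shRNA5, no doxycycline and doxycycline lists, whose highest rates were 1.69%, 1.09% and 3.47%. In lists of equal length the folds of zinc finger genes with a TSS peak were 0.577 for shRNA5 and 0.606 for shRNA7, and those of body and 3′ end peaks 0.875, 1.38 and, for doxycycline, 1.31. With peaks of significance score 100 or more the TSS folds were 4.12 and 5.20, and the body and 3′ end folds 13.2 for shRNA7 and 1.49 for doxycycline. With a fold enrichment of at least 10 they were 1.24 and 1.68 for the TSS and 0.722, 2.50 and 0.277 for body and 3′ end peaks upon shRNA5, shRNA7 and doxycycline. Merging peaks under 1 kb apart gave 6.17 for body and 3′ end peaks upon shRNA7. The causes were not tested. The share of shRNA7 body and 3′ end peaks on the last coding exon, 29.7%, was 36.3% with the score filter and 44.3% with the fold enrichment filter. Leaving out the ZNF565 to ZNF573 genes, which was added once the data had been seen, gave TSS folds of 2.24, 2.62 and 0.905 and body and 3′ end folds of 6.40, 12.1 and 0.781. No paired analysis was possible because 1 RNAPII library stands for every group, and for the same reason no replicate could be left out. Weak peaks limit the doxycycline arm, where the smallest rest on 9 and 11 tags.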

Other observations

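The DNA around the peaks of the zinc finger genes differed in base content from that around other chromosome 19 peaks. In the 2 kb around the summits of body and 3′ end peaks the median share of A and T was 58.8%, 59.4% and 58.8% for the control, shRNA5 and shRNA7 hairpins and 57.7% and 58.3% in the absence and presence of doxycycline. Around those of other chromosome 19 genes it was 47.4%, 48.3%, 48.8%, 46.8% and 47.6%. Around TSS summits it was 47.2% to 50% in the zinc finger genes and 40.8% to 42.5% in the other genes. The values varied more between the sets of genes than between the lists.

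Further letters were searched for in the promoter windows on both strands. TATAAA, the core of the TATA box, was found in 4 of 210 zinc finger windows (1.90%, interval 0.743 to 4.79%), against 9.59% of all windows and 8.04% of those of other chromosome 19 genes. ZNF genes elsewhere stood at 4.64% (interval 2.46 to 8.58%). GGGCGG, the GC box, was found in 69.5% (interval 63.0 to 75.4%), against 59.3% of all windows. Other chromosome 19 genes stood at 66.6%, inside that interval, and ZNF genes elsewhere at 60.3%. GCGCATGCG, recognized by NRF1, was found in 2.86% of the zinc finger windows, against 2.74% of all windows, and AAGATGGCG, recognized by YY1, in 3.33%, against 2.80%.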
